A study of Mus musculus with 48 samples.

Results

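Ttr, Clic6, Kl, Otx2, Folr1 and Kcnj13 are genes of the choroid plexus, and they were followed here through the m6A peaks of mouse hippocampus. They make up 6 of 22380 protein-coding genes of the mm9 annotation, and 198 of the 857395 peaks called in the series overlapped their gene bodies. The genes were chosen by their known use as choroid plexus markers, with earlier results on their peaks in these animals in view, so their calls and levels are given as a description. Otx2 and Kcnj13 entered the tests over all genes below and nothing is drawn from those tests about them. N6-methyladenosine (m6A), a methyl mark on adenosines of RNA, was mapped by MeRIP-seq, in which RNA fragments pulled down with an anti-m6A antibody (IP) are sequenced beside the unselected RNA (input). Each of 24 male mice gave 1 IP and 1 input library from its hippocampus. The KI mice were heterozygous HdhQ7/Q111 knock-in animals, which carry an expanded CAG repeat in the mouse huntingtin gene and serve as a model of Huntington's disease, and the WT mice were HdhQ7/7 animals of the same C57BL/6 breeding. Both genotypes were taken at 8 and at 5 months of age, either 30 minutes after training in an object location task or naive (not trained), which gave 8 conditions of 3 animals. Each animal belonged to 1 condition only and is named here as on its label, Ctrl for naive and TR for trained, then the animal's number and genotype (Ctrl-2201-KI). An animal's gene was counted as called when a peak of that animal overlapped the gene body by at least 1 bp.

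The choroid plexus is the folded epithelium that hangs in the brain ventricles and secretes cerebrospinal fluid. Its sheet in the lateral ventricle borders the hippocampus along the fimbria, so a strip of it can stay attached when the hippocampus is lifted out. Its epithelial cells carry transthyretin (Ttr), which binds thyroid hormone and retinol-binding protein, the folate receptor Folr1, the potassium channel Kcnj13, the chloride channel family protein Clic6, the transcription factor Otx2 and klotho (Kl), a membrane protein that serves as a co-receptor for FGF23 and is also made in kidney. A peak needs RNA from the gene as well as the m6A mark and reads enough to be called, so in these bulk samples the number of choroid plexus cells, the amount of RNA per cell and the methylation of that RNA cannot be told apart, and a gene without a peak is not a gene without m6A or without RNA.

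The peaks that different animals had in a gene largely lay over each other, and the sites beneath them are shown to give each peak its sequence. The letters GGAC, the core most often found at m6A sites, were searched on the strand of the gene within 100 bases on both sides of each summit. They occurred beside 120 of the 198 peaks of the choroid plexus genes (60.6%), against 62.6% of 653903 windows of the same 201 bases around all peaks with a summit in 1 protein-coding gene. For the Clic6 peak, the Otx2 peak, both Kcnj13 peaks, the Folr1 peak and the Kl peak that lies next to the same GGAC in most animals, the sites are given 5′ to 3′ in mm9 with GGAC in capitals.
Clic6, coding sequence, chr16:92499126-92499155, plus strand: gccgggagcccgaGGACcccacggcctcag
Otx2, 3′UTR, chr14:49278176-49278205, minus strand: agcaacctgaaatGGACaaaccaatctact
Kcnj13, last coding exon, chr1:89283051-89283080, minus strand: aagagtccacacaGGACtgacctagatatt
Kcnj13, around the start codon, chr1:89285946-89285975, minus strand: cacagcctgcgatGGACagcagtaattgta
Folr1, intron, chr7:109014927-109014956, minus strand: aaaaaaataacgaGGACagtctttaaaaaa
Kl, coding sequence, chr5:151785117-151785146, plus strand: cgtggtcgctcatGGACggtttcgagtggc
The Clic6 site was the GGAC nearest to the summit in 16 animals, the Kl site in 21, the Otx2 site in 8, and the Kcnj13 sites in 5 and 2. A match of these letters describes the sequence and was not tested as a methylation site.

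The genes fell into those found in nearly all hippocampi and those found in a few. Kl was called in 24 of 24 animals and Clic6 in 23, Otx2 in 10, Kcnj13 in 7, Folr1 in 1 and Ttr in 0. Over all protein-coding genes, 7891 were called in every animal, 8506 in none and 5983 (26.7%) in some animals only, and 4 of the 6 choroid plexus genes belonged to those called in some only. Each of the 7 animals with a Kcnj13 peak also had an Otx2 peak, whereas TR-2181-KI, Ctrl-245-KI and Ctrl-222-WT had an Otx2 peak without a Kcnj13 peak. The only animal with a Folr1 peak, KI naive animal Ctrl-2201-KI of 5 months, had a peak in both Otx2 and Kcnj13. How often other genes called in few animals are called together was not counted, so this is a description.

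**Figure D1:**
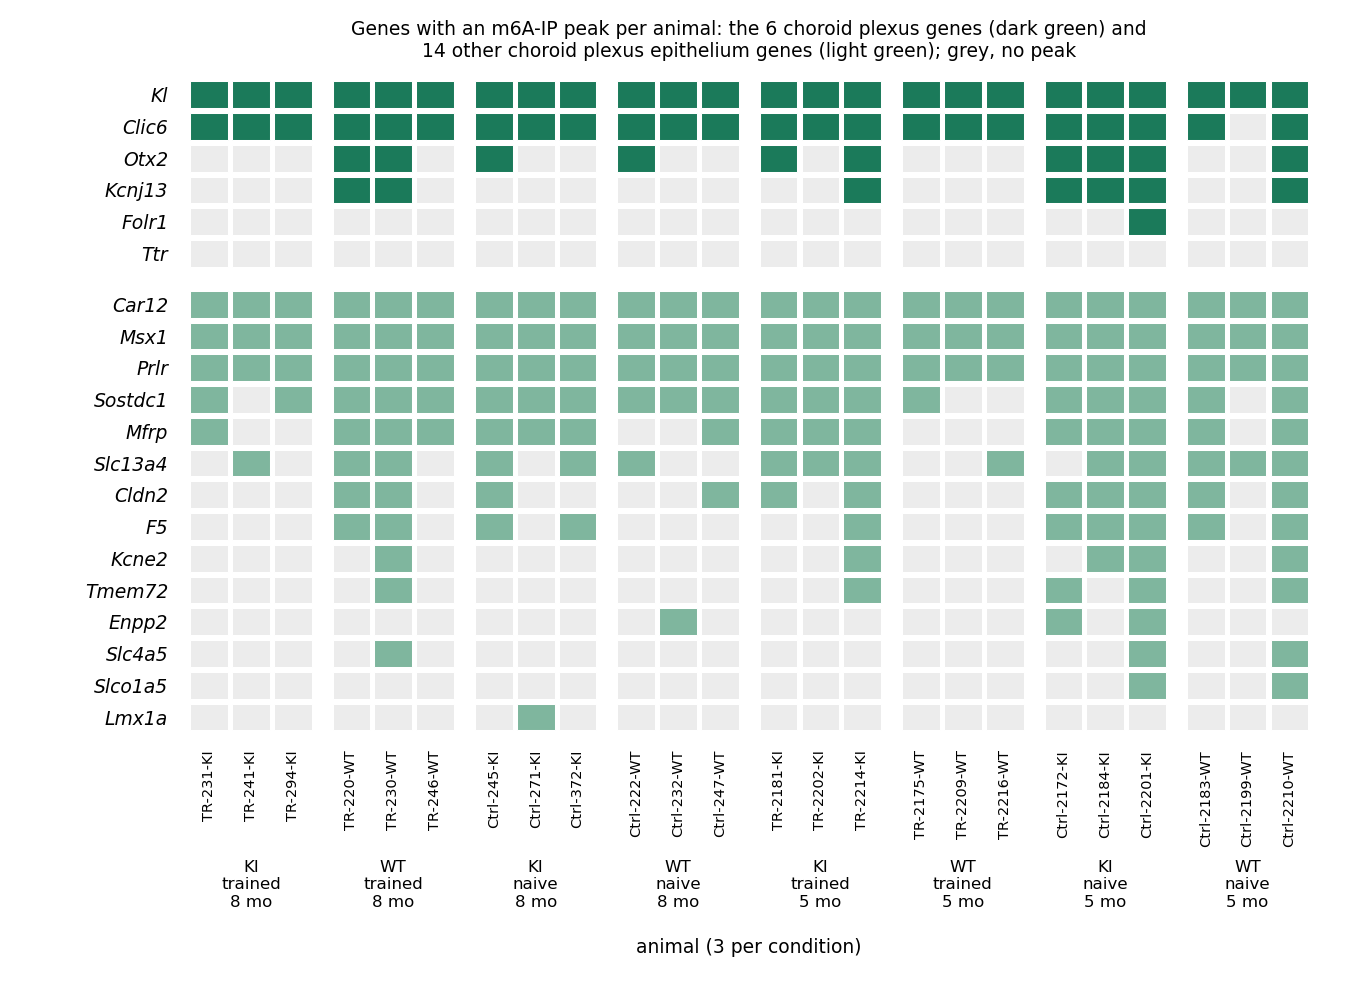
Each tile is 1 gene in 1 animal, filled where at least 1 m6A-IP peak of that animal overlapped the gene body, with the 24 animals grouped by condition along the bottom and 20 genes down the side (6 choroid plexus genes in dark green, 14 other choroid plexus epithelium genes in light green). Otx2, Kcnj13, Kcne2 and Tmem72 were filled together in animals TR-230-WT, TR-2214-KI, Ctrl-2201-KI and Ctrl-2210-WT, which belonged to 4 different conditions.

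Clic6, an intracellular chloride channel protein of secretory epithelia, had its peaks at 1 place only, chr16:92498343-92499713 in mm9 (gene chr16:92485981-92541488, plus strand), 12.4 to 13.7 kb into the gene, and all 25 summits lay in coding sequence. At 8 months the peaks of this gene covered 257, 379 and 227 bp in KI trained animals and 607, 1284 and 425 bp in WT trained animals. Among naive animals of 8 months the KI lengths were 443, 480 and 610 bp and the WT lengths 662, 605 and 611 bp. The KI trained animals of 8 months had the shortest covered length of the 23 animals with a Clic6 peak. They did not overlap with the WT trained animals, the nearest being 379 bp against 425 bp, and TR-230-WT stood far above the other WT animals. How many of all genes separated these 2 conditions by covered length was not counted, so nothing is drawn from this about genotype. The naive genotypes of that age overlapped. At 5 months the covered length was 756, 999 and 1286 bp in KI trained animals, against 505, 867 and 811 bp in WT trained animals. In naive animals of 5 months the KI lengths were 1136, 1332 and 1306 bp and the WT lengths 921, 0 and 1207 bp, with overlap in both pairs. WT naive animal Ctrl-2199-WT was the only one of the 24 without a Clic6 peak, while another WT naive animal of the same condition, Ctrl-2210-WT, had one of the 5 longest Clic6 peaks.

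**Figure D2:**
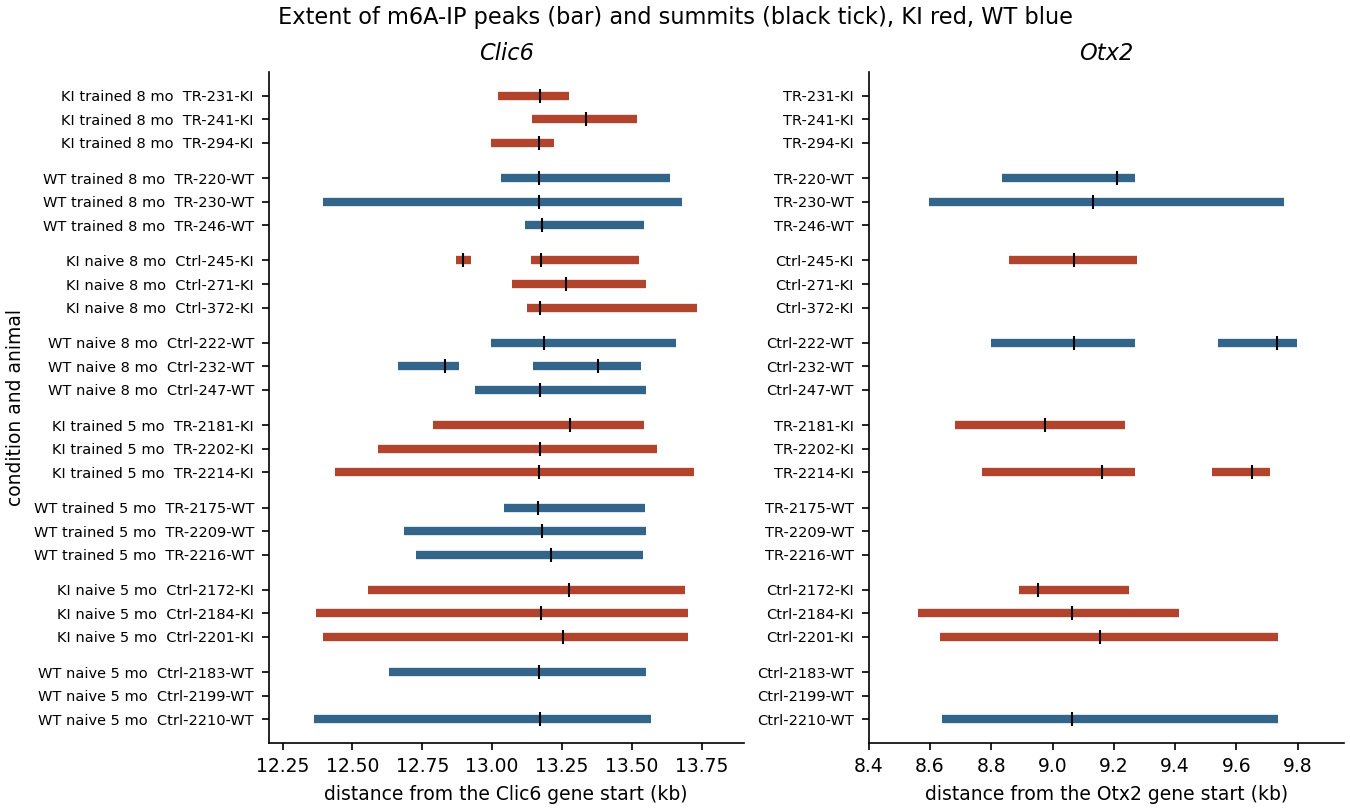
Bars give the extent of each m6A-IP peak and black ticks its summit, as the distance in kb from the gene start, for Clic6 (left) and Otx2 (right) in each of the 24 animals, KI in red and WT in blue. The Clic6 peak was longest in animals Ctrl-2184-KI, Ctrl-2201-KI, TR-2214-KI, TR-230-WT and Ctrl-2210-WT (1207 to 1332 bp) and its summits stayed at about the same distance, and the Otx2 peak was longest in animals TR-230-WT, Ctrl-2201-KI and Ctrl-2210-WT (1097 to 1158 bp).

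The strength of the Clic6 peak varied between animals as well. Its best −log10 q-value, the authors' measure of how surely the peak stands above input, ran between 2.06 and 34.3 in the 23 animals with a peak (median 15.0), and its fold enrichment of IP over input between 2.14 and 14.6. The lowest enrichments, 2.14 in animal Ctrl-2201-KI and 2.64 in animal Ctrl-271-KI, went with opposite lengths, 1306 bp in animal Ctrl-2201-KI and 480 bp in animal Ctrl-271-KI. Animal Ctrl-2210-WT, with 2.97 fold and 1207 bp, resembled animal Ctrl-2201-KI in this. The place of Clic6 among all called genes of the same animal, ranked by their best q-value, lay between the 0.806 percentile in KI naive animal Ctrl-271-KI of 8 months and the 73.3 percentile in WT trained animal TR-2209-WT of 5 months.

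Otx2, a homeobox transcription factor that choroid plexus cells also release, had its peaks in the 3′UTR, with all 12 summits there, between chr14:49277523 and chr14:49278758 (gene chr14:49277354-49287319, minus strand). Of the trained animals of 8 months, 0 of 3 KI and 2 of 3 WT mice had the peak, and of the naive animals of that age 1 of 3 in either genotype. Of the trained animals of 5 months, 2 of 3 KI and 0 of 3 WT mice had it, and of the naive animals 3 of 3 KI and 1 of 3 WT mice. In none of these pairs did 1 genotype have the peak in all 3 animals and the other in none. The covered length was 433 and 1158 bp in the WT trained animals of 8 months that had it, 417 bp in the KI naive and 728 bp in the WT naive animal of 8 months. It was 556 and 689 bp in KI trained animals, 360, 853 and 1106 bp in KI naive animals and 1097 bp in the WT naive animal of 5 months. The best −log10 q-value reached 24.9 in animal Ctrl-2210-WT and was lowest, 3.93, in KI trained animal TR-2181-KI of 5 months.

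Kcnj13, an inward rectifier potassium channel of the apical membrane of the choroid plexus epithelium, was called in 7 animals, and the pattern was uneven between conditions. In KI naive animals it was called in 0 of 3 at 8 months, against 3 of 3 at 5 months (395, 565 and 1146 bp). Of the other conditions, WT trained animals of 8 months had it in 2 of 3 (171 and 677 bp), KI trained animals of 5 months in 1 of 3 (865 bp) and WT naive animals of 5 months in 1 of 3 (1159 bp). The remaining 3 conditions had no Kcnj13 peak. The main peak lay at the 3′ end of the gene, chr1:89282735-89283715 (gene chr1:89282938-89291304, minus strand), with all 7 summits in coding sequence. Kcnj13 lies inside Gigyf2, a translation regulator read from the other strand, and 1 Gigyf2 transcript has an exon at chr1:89282913-89283205 under the main peak. The peaks carry no strand, so reads of the 2 genes cannot be told apart there. A second Kcnj13 peak at chr1:89285807-89286106 overlapped no exon of another protein-coding gene. It was called in animals Ctrl-2201-KI, Ctrl-2210-WT and TR-2214-KI only, and the covered lengths given above include it. The main peak alone measured 905 bp in Ctrl-2201-KI, 889 bp in Ctrl-2210-WT, 677 bp in TR-230-WT and 639 bp in TR-2214-KI.

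The strength of the main Kcnj13 peak varied widely between the 7 animals that had it. Its best −log10 q-value was 40.1 in animals Ctrl-2201-KI and Ctrl-2210-WT, 34.1 in animal TR-230-WT and 25.3 in animal TR-2214-KI. In the other 3 animals with a peak it was 15.6 in animal Ctrl-2184-KI, 6.91 in animal Ctrl-2172-KI and 4.89 in animal TR-220-WT. Within animal Ctrl-2201-KI this placed Kcnj13 at the 87.2 percentile of called genes, and within animal TR-220-WT at the 7.04 percentile.

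**Figure D3:**
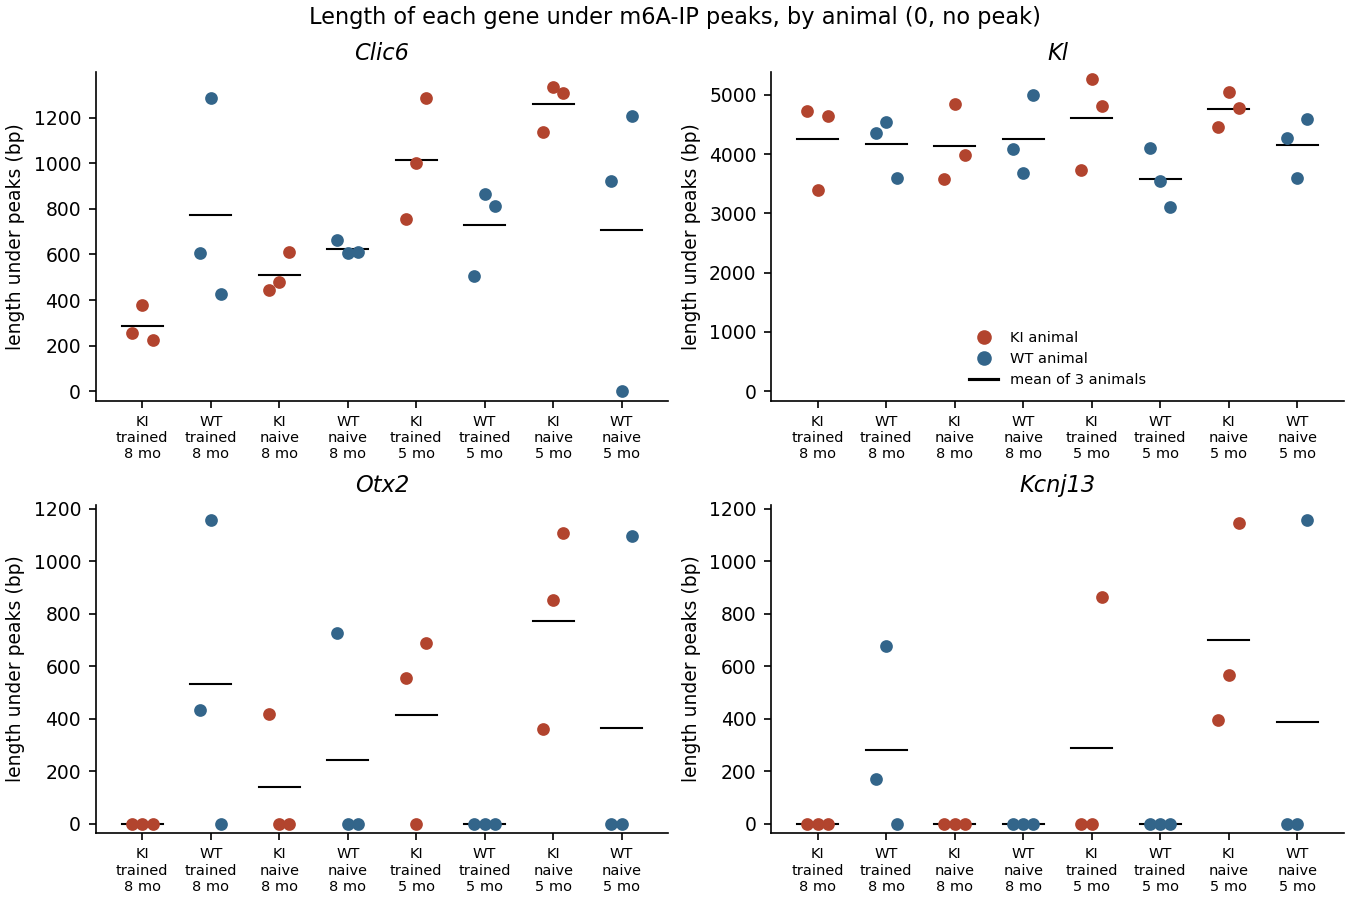
Points give the length in bp of Clic6, Kl, Otx2 and Kcnj13 under m6A-IP peaks in each animal (KI red, WT blue; 0 where no peak was called), and black lines the mean of the 3 animals of a condition. Kl lay between 3111 and 5272 bp in all 24 animals, whereas Otx2 and Kcnj13 were at 0 in most animals and reached 1158 and 1159 bp in the highest.

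Folr1 and Ttr had next to no peaks. Folr1 (chr7:109006845-109019302, minus strand), the folate receptor that carries folate into cerebrospinal fluid, had 1 peak of 257 bp in an intron in animal Ctrl-2201-KI, with a −log10 q-value of 20.9 and a fold enrichment of 10.3, and none in the other 23 animals. Ttr (chr18:20823751-20832825, plus strand), one of the most abundant transcripts of choroid plexus epithelium and a common marker of it in dissected brain, had no peak in any of the 24 animals, under each of the settings used for calling. The peak lists hold no measurement of the amount of Ttr RNA.

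Kl differed from the other choroid plexus genes by its constancy. Each animal had 5 to 8 peaks over the gene (chr5:151755182-151796384, plus strand), and the peaks joined into 7 regions, of which 3 were called in all 24 animals. These 3 lay at 27.8 to 28.5 kb, at 35.6 to 36.9 kb and, over the last coding sequence and the 3′UTR, at 38.7 to 40.9 kb from the gene start. Of the others, 1 at the first exon was called in 21 animals, 2 further inside in 20 and 22, and 1 intronic region in animal Ctrl-2201-KI alone. The covered length averaged 4255 ± 744 bp in KI trained animals of 8 months, against 4169 ± 500 bp in their WT counterparts, and 4141 ± 647 bp in KI naive animals of 8 months, against 4257 ± 672 bp in WT (SD, n = 3 each). It averaged 4606 ± 791 bp in KI trained animals of 5 months, against 3583 ± 496 bp in WT, and 4759 ± 297 bp in KI naive animals of 5 months, against 4157 ± 509 bp in WT. The groups overlapped in each of these pairs of genotypes. Kl stood between the 53.2 and 97.5 percentile of called genes in every animal.

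Taken per animal, 1 to 5 of the 6 choroid plexus genes were called. KI animals had 2.92 ± 1.08 of the 6 genes called and WT animals 2.50 ± 1.0 (SD, n = 12 each), a difference of 0.42 that came to 0.0833 with an equal number of best peaks per animal. Over all genes KI animals had 11139 ± 489 called and WT animals 10639 ± 561. Trained animals had 2.58 ± 0.90 and naive animals 2.83 ± 1.19, a difference of -0.25, beside 10695 ± 562 and 11083 ± 541 of all genes. Animals of 8 months had 2.50 ± 0.80 and animals of 5 months 2.92 ± 1.24, a difference of -0.42, beside 11087 ± 504 and 10692 ± 592 of all genes, which ran the other way. The part of the number of peaks in these differences was not tested. By condition, KI trained animals of 8 months had 2 genes each and their WT counterparts 3.33 ± 1.15, and KI naive animals of 8 months had 2.33 ± 0.58, as had WT (SD, n = 3 each). KI trained animals of 5 months had 3.0 ± 1.0 and WT 2 genes each, and KI naive animals of 5 months had 4.33 ± 0.58 and WT 2.33 ± 1.53. The KI mean was thus above WT in both conditions of 5 months and below it in trained animals of 8 months, a difference between the ages that was not tested. WT naive animals of 5 months held both an animal with 1 gene (Ctrl-2199-WT) and one with 4 (Ctrl-2210-WT).

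A second list of 20 other genes of choroid plexus epithelium was counted beside the 6. The range was 3 to 13 genes called per animal. Animals Ctrl-2201-KI, Ctrl-2210-WT, TR-230-WT and TR-2214-KI stood highest, with 13, 12, 11 and 10 of the 20 genes, and had 5, 4, 4 and 4 of the 6. The other 20 animals had 3 to 9 of the 20 and 1 to 4 of the 6. Kcne2, a potassium channel subunit of the choroid plexus, and Tmem72, a membrane protein, were each called in 5 animals, and animals Ctrl-2201-KI, Ctrl-2210-WT, TR-2214-KI and TR-230-WT were those with both. Without Kcne2 and Tmem72 these animals had 11, 10, 8 and 9 of the remaining 18 genes and the others 3 to 8, so that TR-2214-KI then tied with 5 other animals. Cldn2, the claudin of leaky epithelial junctions, was called in 11 animals, the coagulation factor F5 in 10, the sulfate transporter Slc13a4 in 15 and the frizzled-related Mfrp in 16. Prlr, the prolactin receptor, and Msx1, a homeobox factor, were called in all 24, and Aqp1, the water channel, in 0. These 4 animals belonged to KI naive, WT naive and KI trained mice of 5 months and WT trained mice of 8 months, 1 in each, and the other 4 conditions held none of them.

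**Figure D4:**
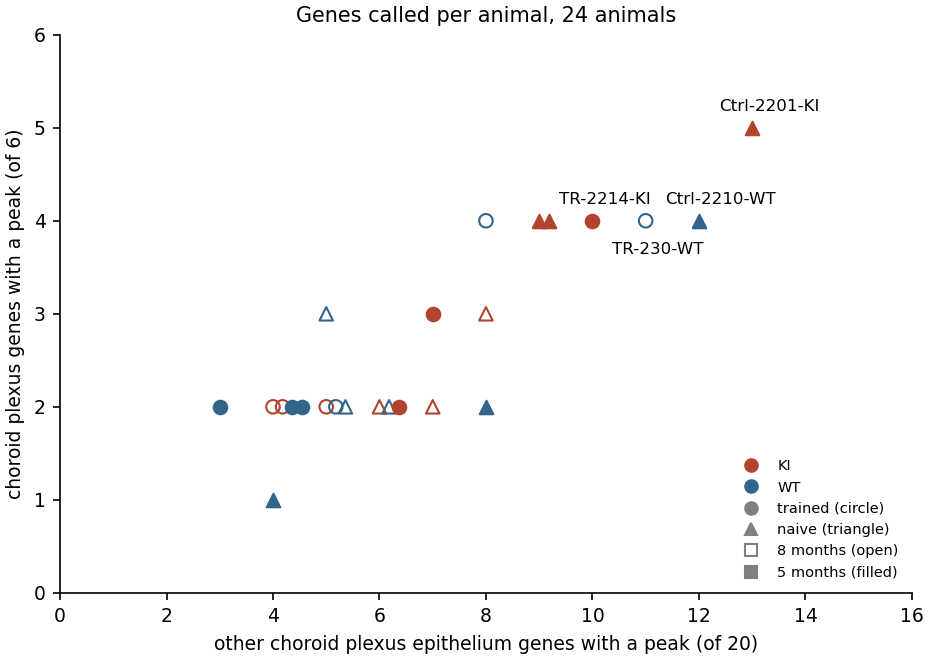
Each point is 1 of the 24 animals (KI red, WT blue; circles trained, triangles naive; open 8 months, filled 5 months), placed by how many of 20 other choroid plexus epithelium genes and how many of the 6 choroid plexus genes had a peak, with points at the same place shifted to the right. Animals Ctrl-2201-KI, Ctrl-2210-WT, TR-230-WT and TR-2214-KI lay at the upper right with 10 to 13 of the 20 genes and 4 or 5 of the 6.

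The 24 animals had 22601 to 57293 peaks and 9612 to 12211 genes called. Animals Ctrl-2201-KI, Ctrl-2210-WT, TR-230-WT and TR-2214-KI lay inside these ranges, with 32710, 30388, 37231 and 37964 peaks. Markers of the hippocampus itself were called at nearly equal numbers in every animal, 6 or 7 of 7 genes of CA1 neurons, 5 to 7 of 8 genes of CA3 neurons and 8 to 11 of 12 genes of dentate granule neurons. Markers of other tissues beside the hippocampus gave 7 to 10 of 12 genes for thalamus and habenula, 7 to 9 of 10 for striatum, 7 to 9 of 10 for endothelium and 3 to 7 of 10 for meninges and fibroblasts. Genes of ependymal cells, the ciliated lining that continues into the choroid plexus, varied most, with 1 to 7 of 12. KI trained animals of 8 months had 1 or 2 of them and WT 2 to 6, KI naive animals of 8 months 2 to 6 and WT 2 to 5, KI trained animals of 5 months 5 each and WT 1 or 2, and KI naive animals of 5 months 5 to 7 and WT 2 to 5. In the order above, the same 4 animals had 5, 5, 6 and 5 of these genes. Ccdc153 and Enkur had peaks in all 3 KI trained animals of 5 months and no WT ones, and Spag16 in no trained KI animal of 8 months and all 3 of 5 months, contrasts in which 1.19% and 0.559% of all genes separated the conditions in either direction. The WT trained animals of 5 months had the fewest peaks of the 8 conditions, 25767 ± 2798, and the fewest genes called, 9894 ± 267 (SD, n = 3). Foxj1, the regulator of motile cilia, was called in all 24 animals, and Rarres2, Dynlrb2 and Tekt1 in 0. The part of ependymal RNA in the choroid plexus calls was not tested.

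Among the 12 contrasts of 3 against 3 animals, a choroid plexus gene was called in all animals of one condition and none of the other only once. Kcnj13 was called in 0 of 3 KI naive animals of 8 months and 3 of 3 of 5 months, a pattern shown in that direction by 0.143% of 13295 genes, and by 0.684% in either direction. The Kcnj13 contrast was lost with an equal number of best peaks per animal. Outside this contrast none of the 6 genes separated 2 conditions in this way. For KI against WT, the share of all genes that did so was 0.332% in trained and 0.487% in naive animals of 8 months, and 1.19% in trained and 0.4% in naive animals of 5 months. For trained against naive, it was 0.687% in KI and 0.323% in WT animals of 8 months, and 0.312% in KI and 0.68% in WT animals of 5 months. For 8 against 5 months, it was 0.559% in trained KI, 1.05% in trained WT and 0.449% in naive WT animals. Of the 20 other choroid plexus genes, Mfrp alone separated conditions. All 3 KI trained animals of 5 months had a Mfrp peak, against 0 of 3 WT animals, and so had all 3 trained WT animals of 8 months, against 0 of 3 of 5 months, the 2 contrasts with the highest shares of all genes.

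Over all 24 animals no gene passed a test by genotype, training or age. Two-sided Fisher's exact tests on 3581 genes called in 3 to 21 animals, with Benjamini-Hochberg adjustment, called 0 genes (0%) in each of the 3 comparisons. At an unadjusted p under 0.05, 79 genes differed between KI and WT, 59 between trained and naive animals and 139 between 8 and 5 months. None of the 9 other choroid plexus genes in that test was among them.

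The comparison tables of the series give a second, quantitative reading. They list peaks with a difference between 2 conditions up to an unadjusted p of 0.05 in the authors' analysis, with the authors' mean level of each condition on a log2 scale, for which no SD can be given. Clic6 and Kl were each listed in 7 of the 10 tables. Of 12309 genes that 2 or more animals of some condition shared as called, 16.4% were listed in 7 tables or more. Otx2 was listed in 1 table, and Ttr, Folr1 and Kcnj13 in none. Each table listed between 27.3% and 44.2% of such genes.

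Of the listed peaks of these genes, the Clic6 peak had the largest difference between 2 conditions. In trained mice of 8 months, where 38% of such genes were listed, the KI level of the Clic6 peak was 7.43 and the WT level 10.66. In trained mice of 5 months, with 35.2% of genes listed, the KI level was 9.80 and the WT level 8.42. The direction between the genotypes was thus opposite at the 2 ages, which was not tested, and Clic6 was not listed for KI against WT in naive mice of 8 months (38.6% of genes listed) or of 5 months (39.7%). With training as the contrast, the WT level at 8 months was 10.66 after training and 8.03 without (44.2% of genes listed), and at 5 months 8.37 after training and 11.00 without (37.6%). The KI level at 8 months was 7.28 after training and 7.93 without (40% of genes listed), over a shorter peak of 738 bp, and at 5 months 9.82 after training and 12.22 without (43.6%). With the genotypes joined, Clic6 was listed at 8 months (40% of genes listed) and not at 5 months (27.3%).

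For description, the levels of the Clic6 peak are given as a higher and a lower set of conditions. This division was not tested. The step between the sets, from 9.80 to 8.42, was little larger than that from 12.22 to 11.00 inside the higher set. They were 12.22 in KI naive and 11.00 in WT naive mice of 5 months, 10.66 in WT trained mice of 8 months and 9.80 to 9.82 in KI trained mice of 5 months. They were 8.37 to 8.42 in WT trained mice of 5 months, 8.03 in WT naive, 7.93 in KI naive and 7.28 to 7.43 in KI trained mice of 8 months. The tables take the peak over different lengths, 1208 to 1354 bp in 5 of these tables and 738 bp in the sixth, so neighbouring levels have no set order. The 4 conditions of the higher set were those that held animals Ctrl-2201-KI, Ctrl-2210-WT, TR-230-WT and TR-2214-KI, and the other 4 held none of them. In KI naive mice of 5 months the Clic6 peak was long in every animal, 1306 bp in Ctrl-2201-KI beside 1136 and 1332 bp. In the other conditions of the higher set the named animal had the longest Clic6 peak. In all 10 tables the level given for both conditions together equalled the log2 of the linear mean of the 2 group levels within 0.02. The higher group thus weighs most in that joint level, which does not show how the animals within a group were averaged. The part of single animals in the group levels was not tested, as the tables hold no value per animal. The tables share groups with each other and their values are not independent.

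**Figure D5:**
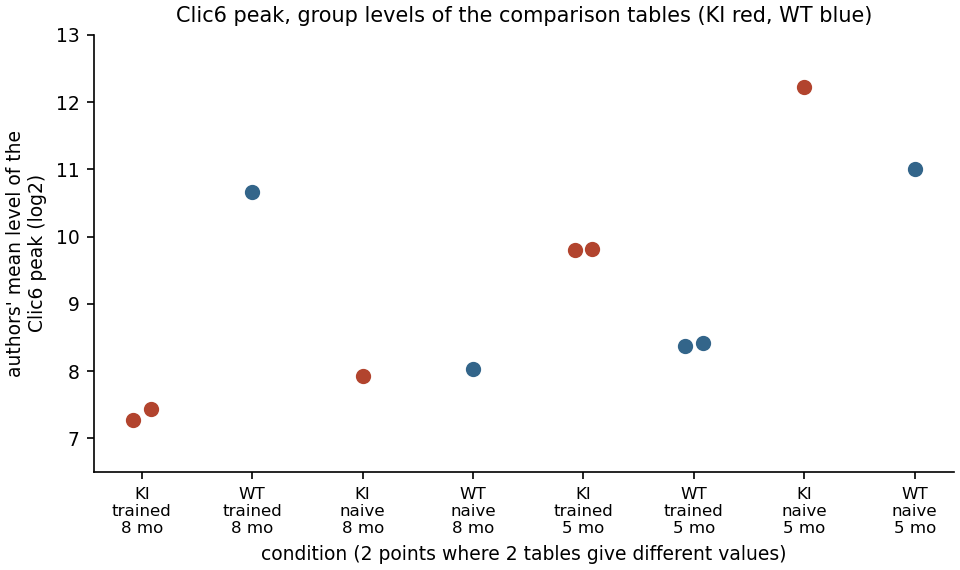
Points give the authors' mean level (log2) of the Clic6 peak in each of the 8 conditions as the comparison tables list it, KI in red and WT in blue, with 2 points where 2 tables give different values. The levels of KI naive, WT naive and KI trained mice of 5 months and of WT trained mice of 8 months, 9.80 to 12.22, lay above the other 4 conditions, 7.28 to 8.42.

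Kl and Otx2 were listed with smaller differences or fewer. The only listed Otx2 peak stood at 7.60 in KI trained and 9.32 in KI naive mice of 5 months. The 16 listings of Kl peaks with 2 group levels differed by -1.21 to 0.75 (log2, KI minus WT or trained minus naive). For the peak over the last part of Kl, the KI level was 11.39 and the WT level 11.94 after training at 8 months, and the KI level was 11.90 and the WT level 11.44 after training at 5 months. Its WT level was 11.94 after training and 11.43 without at 8 months, and 11.44 after training and 12.50 without at 5 months. The Clic6 differences in these 4 tables had the same directions and were larger, and over all tables they ran between -3.23 and 2.63.

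The genes that work with the choroid plexus genes were called in most animals and are made by other brain cells too, and their lists hold the choroid plexus genes of that role as well. Of 16 genes of ion and fluid secretion, 7 were called in all 24 animals, among them the sodium-potassium-chloride cotransporter Slc12a2 and the water channel Aqp4, and 1, Aqp1, in none. The sodium pump subunit Atp1b2 had a peak in 3 of 3 KI and 0 of 3 WT naive mice of 8 months, and the carbonic anhydrase Car14 in 3 of 3 KI and 0 of 3 WT trained mice of 5 months, contrasts separated by 0.487% and 1.19% of all genes. Of 16 genes of folate, thyroid hormone and retinoid handling, 4 were called in all animals and 3 in none, among them Ttr and the retinol carrier Rbp4. The folate transporters Slc19a1 and Slc46a1 were called in 24 and 22 animals, unlike Folr1 in 1. Of 12 genes of klotho and FGF signalling, 6 were called in all animals, among them Kl and the receptors Fgfr1 and Fgfr2, and Fgf23, the hormone that binds to klotho, in none.

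The genes whose peak percentile over the 24 animals ran most like that of the choroid plexus genes included other genes of this epithelium. Likeness was taken as Spearman's rho between the percentile of a gene within each animal and the mean percentile of the 6 genes, over 12725 genes called in 3 animals or more, and is a description, since the values of an animal share 1 library and its depth. The 10 genes with the highest rho were Cldn2 (0.84), 4833427G06Rik (0.83), F5 (0.81), Prrg4 (0.76), Vps8 (0.72), Col8a2 (0.71), Defb23 (0.71), Pbx4 (0.69), Kcne2 (0.69) and Tmem72 (0.68). Cldn2, F5, Kcne2 and Tmem72 are on the list of 20 other choroid plexus genes. Over the 12 genes of that list that could be ranked, the median rho was 0.57, beside 0.04 over all genes ranked. That list was chosen with earlier results of these data known, and its genes called in fewer than 3 animals are not in this median. The difference between these medians can thus come in part from the choice of genes, and nothing is drawn from it.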

How the data were processed

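Of each of 24 mice, an m6A-IP library was set against its input by the authors. Per the labels and the methods of the study, reads were aligned to mm9 with STAR 2.7.3a, peaks were called per animal with MACS2 2.2.6 and conditions were compared with DiffBind 2.8.0. The deposited peak lists hold per peak a score (a whole number scaled from the q-value), a ratio named fold enrichment (IP to input), and p-value and q-value, both as −log10. The 10 tables deposited by the authors give log2 levels per condition for peaks with a p of 0.05 or lower, and the authors' own fold changes and p-values, which were not used. Of the tables for both genotypes joined, the listing is reported, and their levels were used only to check how the joint level was formed. The study states a coverage for its libraries in general and the files give none per library. The number of peaks per animal is given instead and was not tested as a measure of depth. The median peak width of an animal ran between 172 and 485 bp, and its part in the covered lengths was not tested. The number of animals limits the precision.

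Peaks were overlapped (at least 1 bp) with protein-coding gene bodies of GENCODE vM1, which has the coordinates of mm9, and summits were placed in its exons. Counts were made with Python 3.11.15, pandas 2.3.3 and the Fisher's exact test of scipy 1.17.1, checked on simulated data. The 6 genes and all gene lists were chosen with earlier results of these data known. All 6 genes are named. Of the other lists, genes that separated a contrast or were called in 3 to 21 animals are named, up to 6 a list and those nearest to 12 animals first, with up to 3 examples of genes called in 24 or 0 animals, and the 10 genes most like the 6. Some genes that the rule would name are not reported here. Sequences were read from the NCBIM37 (mm9) genome. Alternatives were a summit inside the gene, overlap with an exon, a −log10 q-value of at least 3 or 5, an equal number of 22601 best peaks per animal, genes that overlap another gene left out (Clic6 and Kcnj13), and each animal left out in turn.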

Additional observations from a re-analysis of the deposited data

Results flagged for a closer look

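The number of the 20 other choroid plexus epithelium genes with a peak moved in opposite directions with age in the 2 genotypes of trained mice. All 3 KI trained animals of 8 months had fewer genes (5, 4 and 4) than all 3 of 5 months (7, 6 and 10), a difference of means of -3.33. All 3 WT trained animals of 8 months had more (8, 11 and 5) than all 3 of 5 months (4, 3 and 4), a difference of 4.33. Without animals TR-2214-KI and TR-230-WT the differences were -2.17 and 2.83, and with an equal number of best peaks per animal, where the ages overlapped in both genotypes, -3.33 and 3.0, both alternatives chosen after seeing the data. The count over all genes moved the same way, with 10698 ± 173 genes called in KI trained animals of 8 months and 11091 ± 291 of 5 months, and 11097 ± 331 in WT trained animals of 8 months and 9894 ± 267 of 5 months (SD, n = 3 each). Its part in the difference was not tested, nor was the difference between the genotypes. No condition held more than 3 animals, and outlying animals within a condition were not tested.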

How the results depend on the processing

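The 3 differences in choroid plexus genes called per animal kept their sign in each alternative tried. KI minus WT ranged between 0.0833 (equal number of best peaks) and 0.42 over the settings for calling, 0.23 to 0.55 with each animal left out, and 0.40 without animals Ctrl-2201-KI, Ctrl-2210-WT, TR-2214-KI and TR-230-WT, an alternative chosen after seeing the data. Trained minus naive ranged between -0.42 (−log10 q-value of at least 5) and -0.17 (exon overlap), -0.42 to -0.053 with each animal left out, and -0.20 without the 4 animals. For 8 minus 5 months the range was -0.75 (−log10 q-value of at least 5, and equal number of best peaks) to -0.25, -0.59 to -0.23 with each animal left out, and -0.081 without the 4 animals. The choroid plexus genes that separated 2 conditions numbered 1 as reported, 2 with a −log10 q-value of at least 5 and 0 with an equal number of best peaks, so the Kcnj13 contrast was lost there. Over all genes the 911 gene and contrast pairs became 920, 777 and 703 with the summit in the gene, the higher q-value and equal peaks. Fisher's test over 24 animals called 0 genes in each setting, except for age, where leaving out an animal gave 0 to 1 genes (1 without KI naive animal Ctrl-2184-KI of 5 months and 1 without WT trained animal TR-220-WT of 8 months). No paired analysis was possible because each animal belonged to 1 condition and its input was used only through the authors' peak calls.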
